A study of Mus musculus with 23 samples.

Results

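The 2 mature microRNAs described here are the arms of 1 mouse hairpin, Mir155: miR-155-5p and miR-155-3p. They were taken by name from the deposited tables, where they are 2 of 1256 microRNA entries, and are followed through every population of the study. Small RNA was sequenced in 23 libraries of 6 populations of mouse lymphocytes, in a study that set type 2 innate lymphoid cells (ILC2) beside T helper 2 cells (Th2). The smallest library held 84918 counts, the median one 832220 and the largest 28371920.

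Among innate cells, cultured ILC2 (n = 4) were wild-type cells kept for 10 days with IL-33, TSLP and IL-7 at 10 ng/ml. IL-33 ILC2 (n = 4) were sorted from lungs of wild-type mice that had received 500 ng of IL-33 by oropharyngeal aspiration over 3 days. Lung ILC2 (n = 4) were sorted from untreated wild-type lungs by the gate CD45+ Thy1+ lin- CD4- CD25+ ST2+. Among T cells, cultured Th2 (n = 4) were wild-type CD4+ cells of spleen and lymph node, selected on beads and grown for 5 days with antibodies to CD3 and CD28, IL-4 at 500 U/ml and anti-interferon-gamma at 10 µg/ml. OVA-lung Th2 (n = 3) came from mice with the Il4tm1LKy allele (the 4get reporter of Il4), sensitized with 50 µg of ovalbumin in alum and then given 50 µg of ovalbumin by aspiration over 3 days. They were sorted from lung as reporter-positive CD4+ CD3+ cells, so they differ from the wild-type groups in genotype as well as in treatment. CD4 T cells (n = 4) were resting wild-type cells, CD62L-high CD44-low CD25- CD69-, of spleen and lymph node. Separate animals or cultures are not stated for the libraries of a group, so p-values measure the spread between these samples, which may be technical.

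The labels number the replicates of each group, and a number stands for 1 of 4 count tables, each with 1 library per group (OVA-lung Th2 has no replicate 4). The number matters for miR-155, because its level in resting cells differed far more between replicate numbers than between cell types. The lymphocyte markers miR-142a-3p, miR-142a-5p, miR-150-5p and miR-181a-5p were above 0 in every group and together held 0.166 to 25.6% of a library. The presence of these markers does not tell ILC2 from T cells. Their summed share was 0.828 to 6.15% in lung ILC2, against 5.47 to 25.6% in CD4 T cells. In culture it was 0.186 to 3.82% in ILC2 and 0.166 to 2.59% in Th2.

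A microRNA hairpin is cut by Dicer into a duplex of 2 arms, of which usually 1 is loaded into Argonaute and kept, while the other is mostly degraded. The loaded arm pairs through its seed, bases 2 to 8, with target messenger RNAs and lowers their translation and stability. miR-155-5p is the arm usually kept; it is made from the noncoding host transcript Mir155hg (BIC), is induced when T cells, B cells and macrophages are activated, and is required in mice for normal Th2 and ILC2 responses.

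The arms are shown because both are counted separately and only 1 is abundant. Sequences are from RefSeq on GRCm38.p6 (the submitters' processing notes name mm10), with the seed in capitals in the mature arms and both arms in capitals in the hairpin. On the plus strand, miR-155-5p is at chr16:84714143-84714165, miR-155-3p at chr16:84714182-84714202 and the hairpin at chr16:84714140-84714204.
mmu-miR-155-5p: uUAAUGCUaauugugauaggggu
mmu-miR-155-3p: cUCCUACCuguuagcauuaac
Mir155 hairpin: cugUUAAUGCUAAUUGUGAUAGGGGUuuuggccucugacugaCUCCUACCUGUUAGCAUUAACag

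The hairpin lies in exon 2 (84714053 to 84715245) of Mir155hg, whose GENCODE annotation spans 84703167 to 84715245. The arms are 23 and 21 bases long with 16 bases between them. In the fold predicted by ViennaRNA, 19 of the bases of miR-155-5p paired with miR-155-3p, among them all 7 of its seed. Among 1738 mature mouse microRNAs in the RefSeq table, 0 others had the seed of miR-155-5p and 0 others that of miR-155-3p. Neither arm therefore has a family member in that table whose counts would need to be read with its own.

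miR-155-5p was detected in 22 of 23 libraries. In order of mean level it had 6103 ± 2205 CPM in OVA-lung Th2, 6066 ± 9493 CPM in cultured ILC2, 2830 ± 2446 CPM in cultured Th2, 1359 ± 1679 CPM in IL-33 ILC2, 514 ± 593 CPM in CD4 T cells and 427 ± 488 CPM in lung ILC2 (SD; n = 3 for OVA-lung Th2 and 4 for the others). CPM is the count scaled to a library total of 1000000. In plain CPM the libraries of each pair of neighbours in this order overlapped. The ranking depends on the summary: by medians, cultured Th2 at 2507 CPM came above cultured ILC2 at 1857 CPM. With the scaling of the tests (TMM, which weights down a few dominant microRNAs), the order of the means was that of plain CPM, at 5393 CPM for OVA-lung Th2, 4616 CPM for cultured ILC2, 3921 CPM for cultured Th2, 879 CPM for IL-33 ILC2, 564 CPM for CD4 T cells and 262 CPM for lung ILC2.

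Among all microRNAs of a library, miR-155-5p ranked 19 to 30 in OVA-lung Th2, 21 to 42 in cultured Th2 and 13 to 74 in cultured ILC2. It ranked 41 to 107 in IL-33 ILC2, 65 to 192 in lung ILC2 and, where detected, 61 to 193 in CD4 T cells. Its largest share of a library was 2.02%, in cultured ILC2 2.

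The library values show where the spread lies. In order of replicate number, cultured ILC2 had 366.1, 20185, 3099 and 614 CPM. IL-33 ILC2 had 513.5, 3825, 969.6 and 129.5 CPM. Lung ILC2 had 968.8, 710.8, 11.67 and 17.09 CPM. In both IL-33 ILC2 and cultured ILC2 replicate 2 was highest, and lung ILC2 split into a pair of libraries near the level of IL-33 ILC2 and a pair far below every activated library.

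In the T cell groups, cultured Th2 had 3320, 6000, 1694 and 306.8 CPM. OVA-lung Th2 had 6127, 8296 and 3886 CPM in replicates 1 to 3. CD4 T cells had 880.2, 1156, 0 and 19.48 CPM. In plain CPM replicate 2 was again the highest in each of the 3 T cell groups. That depends on scaling, since under TMM replicate 1 lay above replicate 2 in each. The TMM values were 6559 against 5485 CPM in cultured Th2, 7847 against 4518 CPM in OVA-lung Th2 and 1155 against 1073 CPM in CD4 T cells. Replicate 4 was the lowest in cultured Th2, and CD4 T cells split into the same pairs of replicates as lung ILC2.

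**Figure D1:**
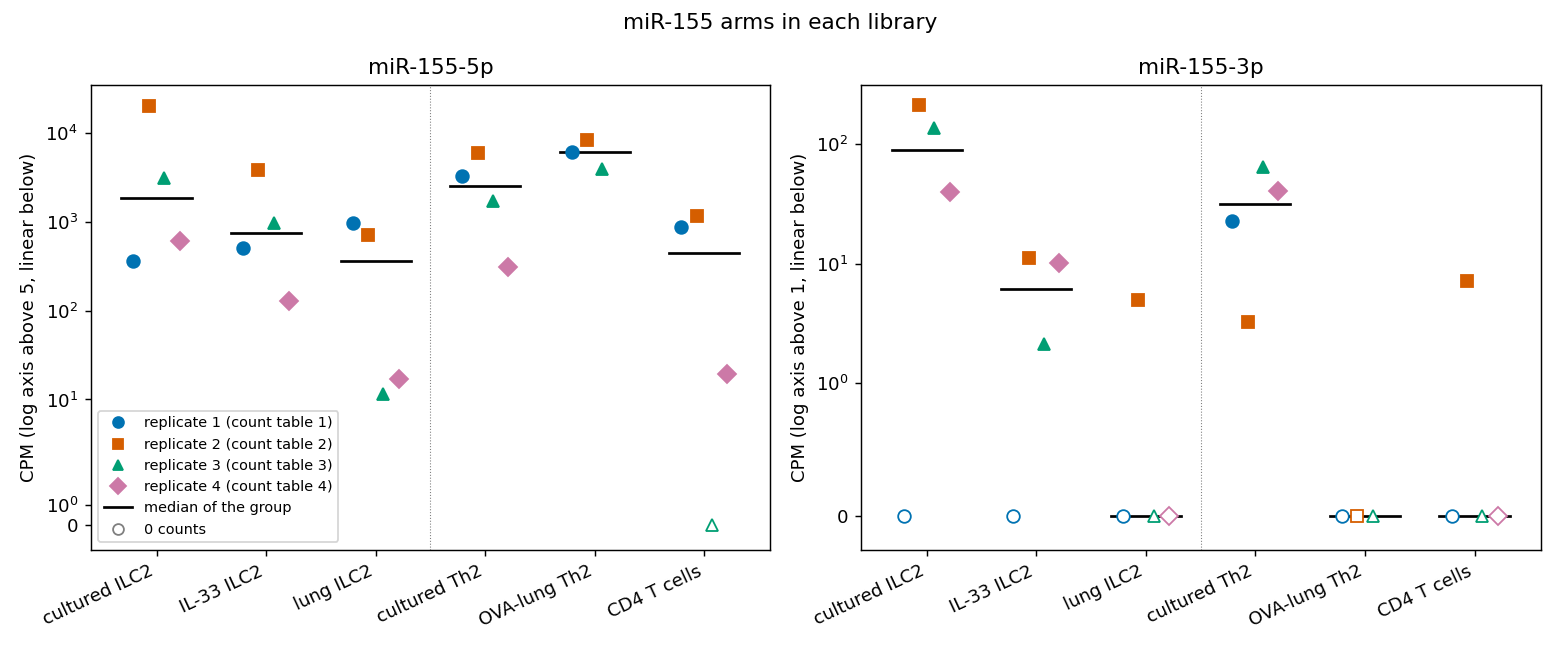
Level of miR-155-5p (left) and miR-155-3p (right) in each of 23 libraries, in CPM on an axis that is logarithmic above 5 (left) or 1 (right) and linear below; colour and shape give the replicate number, lines the group median and open symbols 0 counts. Lung ILC2 and CD4 T cells have 711 to 1156 CPM of miR-155-5p in replicates 1 and 2 and 0 to 19.48 CPM in replicates 3 and 4.

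The low values of resting cells rest on few counts. Lung ILC2 3 had 1 count of miR-155-5p in 85687 (exact 95% interval 0.295 to 65 CPM) and lung ILC2 4 had 5 in 292559 (5.55 to 39.9 CPM). CD4 T cells 4 had 31 counts in 1591277 (13.2 to 27.7 CPM), and CD4 T cells 3 had 0 in 444240 (0 to 8.3 CPM). Resting libraries of replicates 1 and 2 held 133 to 2584 counts and intervals from 668 to 1201 CPM. The gap between libraries within each resting group is therefore wider than counting error, which is all that these intervals, and the floors given further on, cover.

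Culture or IL-33 against untreated lung asks what activation does in ILC2. In 3 of 4 replicates miR-155-5p was higher in cultured ILC2 than in lung ILC2, 28.4-fold in replicate 2 and 35.9-fold in replicate 4, while in replicate 1 cultured ILC2 had 0.378 times the level of lung ILC2. In replicate 3 the lung library had the single count given above. The groups overlapped. The fitted log2 difference was 4.14 ± 1.49 (SE) with an adjusted p of 0.217 (edgeR quasi-likelihood test, all 384 tested entries), which is not a call at the threshold of 0.05. Of all entries 0.26% were called there.

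With the replicate number (count table) as a block, the same difference was 5.02 ± 1.41 and passed at an adjusted p of 0.0439, in a fit that called 3.65% of all entries as higher. That call depends on scaling and on single libraries. With a block it had adjusted p-values of 0.0513 under DESeq2-type size factors (RLE) and 0.0528 under library totals, and over the 12 alternatives they ran from 0.00186 to 0.607. Leaving out 1 library of either group at a time, it passed without lung ILC2 1 (or without cultured ILC2 1), and otherwise did not, with values of 4.48 to 6.03 and adjusted p-values of 0.00672 to 0.188.

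After IL-33 in vivo, miR-155-5p had 513.5, 3825, 969.6 and 129.5 CPM in IL-33 ILC2, against 968.8, 710.8, 11.67 and 17.09 CPM in lung ILC2. It was higher in 3 of 4 replicates, 5.38-fold in replicate 2 and 7.58-fold in replicate 4, and 0.53 times as high in replicate 1. The log2 difference of 1.75 ± 1.35 did not pass (edgeR adjusted p = 1; with the block 2.85 ± 1.31, adjusted p = 0.591). In this comparison 0% of entries were called without the block and 0.521% with it.

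Cultured ILC2 against IL-33 ILC2 compares culture with activation in the animal. The level in cultured ILC2 was 0.713, 5.28, 3.2 and 4.74 times that in IL-33 ILC2 in replicates 1 to 4. The log2 difference of 2.39 ± 1.38 did not pass (edgeR adjusted p = 0.44; block 2.17 ± 1.20, adjusted p = 0.292). Calls over all entries were 0% without the block and 4.17% with it (2.6% as higher). All 3 ILC2 comparisons share libraries, and in plain CPM replicate 1 had the opposite direction to the other 3 in each of them. That depends on scaling. Under TMM, IL-33 ILC2 1 at 728.6 CPM lay above lung ILC2 1 at 638 CPM, as in the other replicates. Cultured ILC2 1, at 576 CPM under TMM, stayed below both.

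Levels of markers of other lung cells are given for the same groups. The 2 endothelial miR-126a arms together held 0.00379 to 0.05% of counts in cultured ILC2 and 0.0432 to 0.407% in IL-33 ILC2, against 0.0256 to 2.16% in lung ILC2. The 7 mesenchymal entries (miR-143, miR-145a, miR-199a and miR-214 arms) held 0.00956 to 0.122% in cultured ILC2 and 0.0267 to 0.178% in IL-33 ILC2, against 0.435 to 1.12% in lung ILC2. The 5 erythroid entries held 0.0367 to 0.204% in cultured ILC2 and 0 to 0.566% in IL-33 ILC2, against 0.0249 to 1.87% in lung ILC2. In lung ILC2 the 6 epithelial entries held at most 0.139% and the 2 myeloid miR-223 arms at most 0.0969%. Of all these entries, 1 myeloid and 1 erythroid were at 0 in every lung ILC2 library. None of these markers passed in IL-33 ILC2 against lung ILC2 in either edgeR fit, and in cultured ILC2 against lung ILC2 the only one was 1 endothelial entry, lower with the block. The part of these cells in the miR-155 levels was not tested, and in bulk libraries fewer cells with miR-155 and less miR-155 per cell cannot be told apart.

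In T cells the direction against CD4 T cells, whose libraries both comparisons share, was the same in every replicate number. OVA-lung Th2, at 3886 to 8296 CPM, did not overlap CD4 T cells, at 0 to 1156 CPM. Among all 384 entries 3.91% were higher with no overlap in that comparison. The folds were 6.96 in replicate 1 and 7.18 in replicate 2, and in replicate 3 the level was 3886 CPM in OVA-lung Th2 and 0 in CD4 T cells. The log2 difference was 3.26 ± 1.47 with an edgeR adjusted p of 0.219, and 3.81 ± 1.36 with an adjusted p of 0.0923 under the block, so it passed in neither fit. Leaving out 1 library brought it to between 1.82 and 3.59 without the block and 2.63 and 4.37 with it, the lowest in both without CD4 T cells 4. The share of entries called was 0% without the block and 5.73% with it, 2.86% as higher and 2.86% as lower. Of the alternatives, 3 passed: the block with RLE size factors (4.79, adjusted p = 0.0259), DESeq2 (4.12, adjusted p = 0.0429) and limma on RPM with a pseudocount of 1 (6.43, adjusted p = 0.047). The shares of all entries called under these settings are not given here. Over all 12 alternatives the adjusted p ran from 0.0259 to 0.428, each with a positive difference.

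Cultured Th2 had 3320, 6000, 1694 and 306.8 CPM, against 880.2, 1156, 0 and 19.48 CPM in CD4 T cells, higher in 4 of 4 replicates. The folds were 3.77, 5.19 and 15.7 in replicates 1, 2 and 4. Across replicates the groups overlapped in plain CPM, since cultured Th2 4 lay below CD4 T cells 1 and 2. Under TMM, where its scaling factor was 0.2, cultured Th2 4 had 1532 CPM, above 1155 and 1073 CPM in those libraries. The share of all entries without overlap under TMM was not counted. The log2 difference of 2.80 ± 1.40 did not pass (edgeR adjusted p = 0.349), nor did 3.90 ± 1.32 with the block (adjusted p = 0.0576). Calls made up 1.04% of entries without the block and 13% with it. It passed with the block and RLE size factors at 4.43 (adjusted p = 0.0203). It also passed with the block and no filter on low counts at 3.95 (adjusted p = 0.00696), a setting added after the data were seen. For these settings too the share of all entries called is not given. The 12 alternatives ran up to an adjusted p of 0.408.

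**Figure D2:**
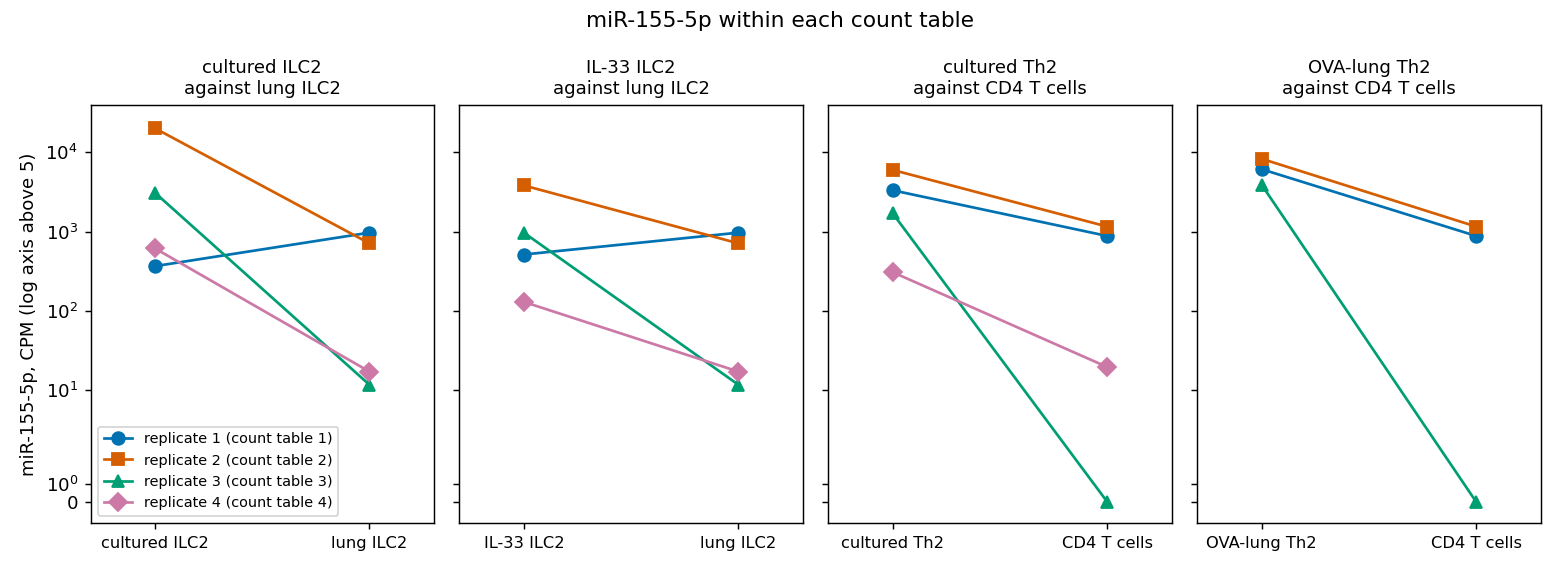
CPM of miR-155-5p (log axis above 5) in 4 pairs of activated and resting populations, the activated one on the left of each panel; each line joins the libraries of 1 replicate number. All lines to CD4 T cells slope down to the right; lines to lung ILC2 slope down in 3 of 4 replicates, with replicate 1 sloping up.

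In the T cell groups the endothelial arms held 0.000452 to 0.0337% of counts in cultured Th2 and 0.00983 to 0.108% in OVA-lung Th2, against 0 to 0.0317% in CD4 T cells. The mesenchymal entries held up to 0.0182% in cultured Th2 and 0.489% in OVA-lung Th2, against up to 0.0123% in CD4 T cells, and 4 of the 7 were at 0 throughout cultured Th2 and 4 throughout CD4 T cells. The erythroid entries reached 0.193% in cultured Th2 and 0.969% in OVA-lung Th2, against 0.443% in CD4 T cells. The myeloid arms reached 0.00538% in cultured Th2 and 0.113% in OVA-lung Th2, against 0.072% in CD4 T cells. The epithelial entries reached 0.0398% and 0.0742%, against 0.0939% in CD4 T cells. Without the block none of the markers passed against CD4 T cells. With it 1 endothelial entry was higher in cultured Th2, and 1 endothelial and 1 erythroid entry were higher in OVA-lung Th2. Their part in the T cell comparisons was not tested either.

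The activated populations were also set against each other. Cultured Th2 had 0.542, 0.723 and 0.436 times the level of OVA-lung Th2 in replicates 1 to 3, with a log2 difference of -0.46 ± 1.40 (edgeR adjusted p = 0.895). Its sign depends on the fit, being 0.09 ± 1.29 with the block. Cultured ILC2 had 0.11, 3.36, 1.83 and 2 times the level of cultured Th2 in replicates 1 to 4, and the log2 difference was 0.24 ± 1.31. Neither difference passed. The folds within replicates are in plain CPM, and some turned under TMM. Cultured Th2 2 at 5485 CPM then lay above OVA-lung Th2 2 at 4518 CPM. Cultured ILC2 4 at 998.9 CPM then lay below cultured Th2 4 at 1532 CPM. Among all entries 0.521% were called in the first of these comparisons without the block and 1.82% with it, and 0.26% and 12.5% in the second.

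The in vivo effector cells of both lineages came from lung. IL-33 ILC2 lay below OVA-lung Th2 in 3 of 3 replicates, at 0.0838, 0.461 and 0.249 times its level. The groups did not overlap, as for 3.39% of entries in that direction. The log2 difference of -2.62 ± 1.44 did not pass (edgeR adjusted p = 0.347; block -2.06 ± 1.26, adjusted p = 0.34).

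In plain CPM resting cells of the lineages were close within a replicate number: lung ILC2 had 1.1 and 0.615 times the level of CD4 T cells in replicates 1 and 2 and 0.877 times in replicate 4. Replicate 4 rests on 5 against 31 counts, and replicate 3 had 1 against 0. Under TMM lung ILC2 lay lower in replicates 1, 2 and 4, at 638 against 1155, 396.5 against 1073 and 9.607 against 26.54 CPM. The log2 difference was -1.11 ± 1.32 (edgeR adjusted p = 0.656), of which -0.88 was the shift of the median entry under TMM scaling. The difference with respect to that median was -0.22. In limma on RPM the sign was positive, at 0.73 with a pseudocount of 1. The share of entries called was 1.56% without the block.

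Whether miR-155-5p changed differently in the ILC2 groups and the T cell groups was tested directly. In vivo the T cell change also spans tissue and genotype, from wild-type spleen and lymph node to reporter lung. The ILC2 change stays within wild-type lung, so lineage cannot be told apart from these. The ILC2 change minus the T cell change was -1.51 ± 1.92 in vivo (edgeR adjusted p = 0.744; block -0.97 ± 1.70) and 1.34 ± 1.86 in culture (adjusted p = 0.962; block 1.12 ± 1.64). No difference between the lineages passed, and the standard errors leave room for one of several-fold in either direction. In these tests 0% of entries were called without the block, and 3.65% in vivo and 0.781% in culture with it.

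**Figure D3:**
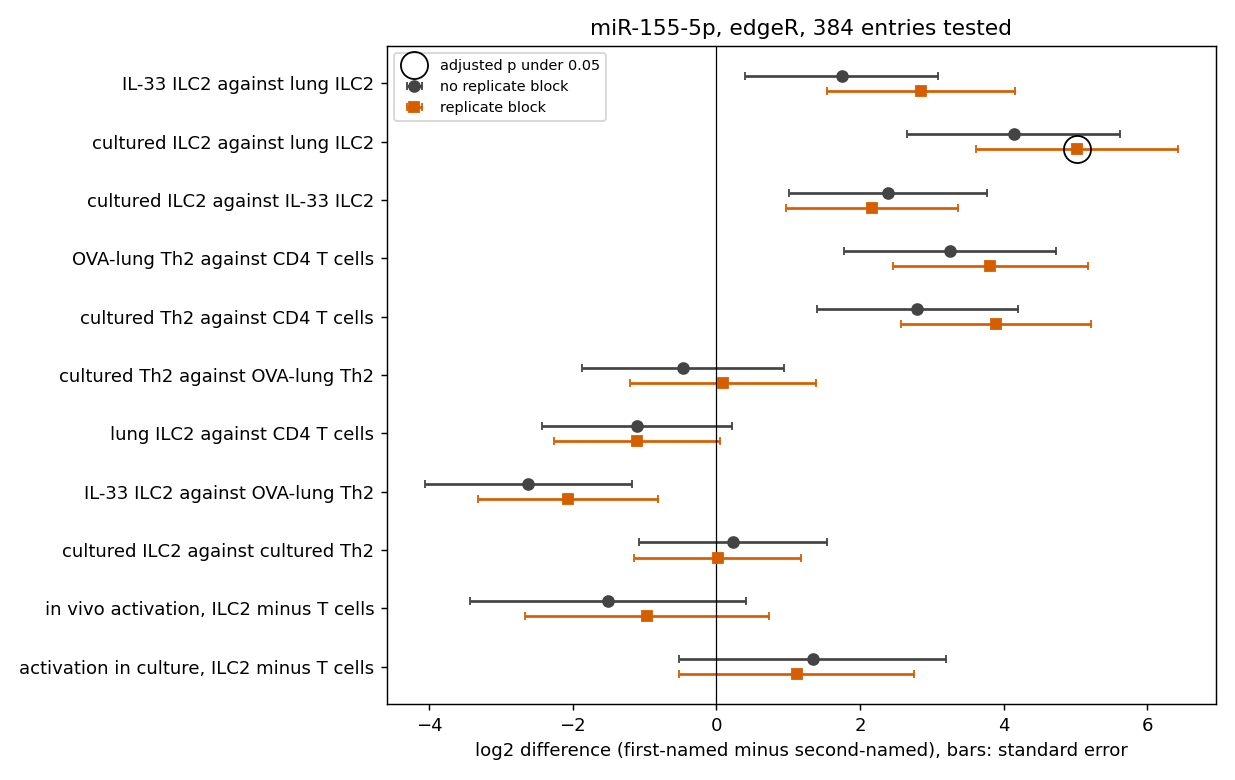
Log2 difference of miR-155-5p with its standard error in 9 pairs of populations and 2 tests between lineages, from the edgeR fit without the block (dark circles) and with it (orange squares). The ringed value, 5.02 for cultured ILC2 against lung ILC2 with the block, is the one with an adjusted p under 0.05.

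miR-155-3p was scarce. Its mean level was 96.2 ± 94.5 CPM in cultured ILC2, 5.85 ± 5.61 CPM in IL-33 ILC2 and 1.24 ± 2.48 CPM in lung ILC2. In T cells it was 32.7 ± 26.1 CPM in cultured Th2, 0 in OVA-lung Th2 and 1.79 ± 3.58 CPM in CD4 T cells (SD; n = 3 for OVA-lung Th2, 4 for the others). The higher levels were those of both cultured populations.

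By replicate number, cultured ILC2 had 0, 695, 97 and 33 counts of miR-155-3p, IL-33 ILC2 0, 1, 1 and 15, and lung ILC2 0, 7, 0 and 0. Cultured Th2 had 642, 7, 65 and 161 counts, OVA-lung Th2 had 0 in each of its 3 libraries, and CD4 T cells had 0, 16, 0 and 0. The arm was thus seen in 4 of 4 cultured Th2 libraries and in 1 of 4 libraries of each resting population.

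In CPM, cultured Th2 had 22.63, 3.247, 64.61 and 40.42, against 0, 7.156, 0 and 0 in CD4 T cells. The groups overlapped through replicate 2. The log2 difference was 5.47 ± 2.32 with an edgeR adjusted p of 0.273. With the block it was 7.23 ± 2.23 and passed at an adjusted p of 0.0312, in a fit that called 8.59% of all entries as higher. It also passed with DESeq2 (6.36, adjusted p = 0.0183), for which the share of all entries called is not given. It missed the threshold with the block under library totals (6.62, adjusted p = 0.0524) and with the block and no filter (7.58, adjusted p = 0.0523), and the 12 alternatives ran from 0.016 to 0.463. With the block and 1 library left out at a time it ranged from 5.33 to 10.34 and passed only without CD4 T cells 2, cultured Th2 2 or cultured Th2 3.

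For cultured ILC2 the levels were 0, 208.9, 136.3 and 39.65 CPM, against 0, 4.956, 0 and 0 CPM in lung ILC2. The log2 difference of 6.38 did not pass (edgeR adjusted p = 0.217; block 6.86, adjusted p = 0.0753). Fitted folds of this arm lean on a prior count, since most resting libraries hold 0. OVA-lung Th2 had 0 counts, but its libraries are shallow: 0 counts allow up to 19.7, 11.0 and 35.3 CPM in replicates 1 to 3 (3 counts of the total). Cultured Th2 2 at 3.247 CPM lay below all of these floors and cultured Th2 1 at 22.63 CPM below the highest. A level of miR-155-3p in OVA-lung Th2 below that of cultured Th2 or IL-33 ILC2 was therefore not detectable at this depth as a separation of the libraries.

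The share of miR-155-3p in the counts of both arms compares the arms within a library and does not depend on scaling. Libraries with at least 20 counts of both arms were used. By replicate number it was 0, 1.02, 4.21 and 6.07% in cultured ILC2, and 0, 0.291, 0.218 and 7.25% in IL-33 ILC2. It was 0 and 0.692% in lung ILC2 (replicates 1 and 2). It was 0.677, 0.0541, 3.67 and 11.6% in cultured Th2, 0% in the 3 OVA-lung Th2 libraries, and 0, 0.615 and 0% in CD4 T cells (replicates 1, 2 and 4). miR-155-5p was the major arm in every library that had either.

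In OVA-lung Th2, 0 counts of miR-155-3p allow shares up to 0.321, 0.133 and 0.909% in replicates 1 to 3 (3 counts of both arms). The shares of 3.67 and 11.6% in cultured Th2 3 and 4 lay above all of these. That of 0.677% in cultured Th2 1 lay below the highest, and that of 0.0541% in cultured Th2 2 below all. Pooling the 3523 counts gives 0.0852%, but treats the libraries as 1 sample. In cultured Th2 4 the exact 95% interval was 10 to 13.4%, and in cultured Th2 2 it was 0.0217 to 0.111%. These intervals lie far apart within 1 population. Counts were few in CD4 T cells 4, where 0 of 31 has an interval up to 11.2%.

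The mean share was 2.83 ± 2.81% in cultured ILC2 (n = 4), 1.94 ± 3.54% in IL-33 ILC2 (n = 4) and 0.346 ± 0.49% in lung ILC2 (n = 2). Without replicate 4 the mean of IL-33 ILC2 was 0.17%. It was 4.01 ± 5.33% in cultured Th2 (n = 4), 0% in OVA-lung Th2 (n = 3) and 0.205 ± 0.355% in CD4 T cells (n = 3). In 9 two-sided exact permutation tests between groups the smallest p was 0.171, for cultured Th2 against OVA-lung Th2. These tests could not have passed: the least p the group sizes allow is 0.0286 to 0.1, and with every test at its least p the smallest adjusted value over the 9 pairs would be 0.0514. They are therefore no evidence that the shares are alike.

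**Figure D4:**
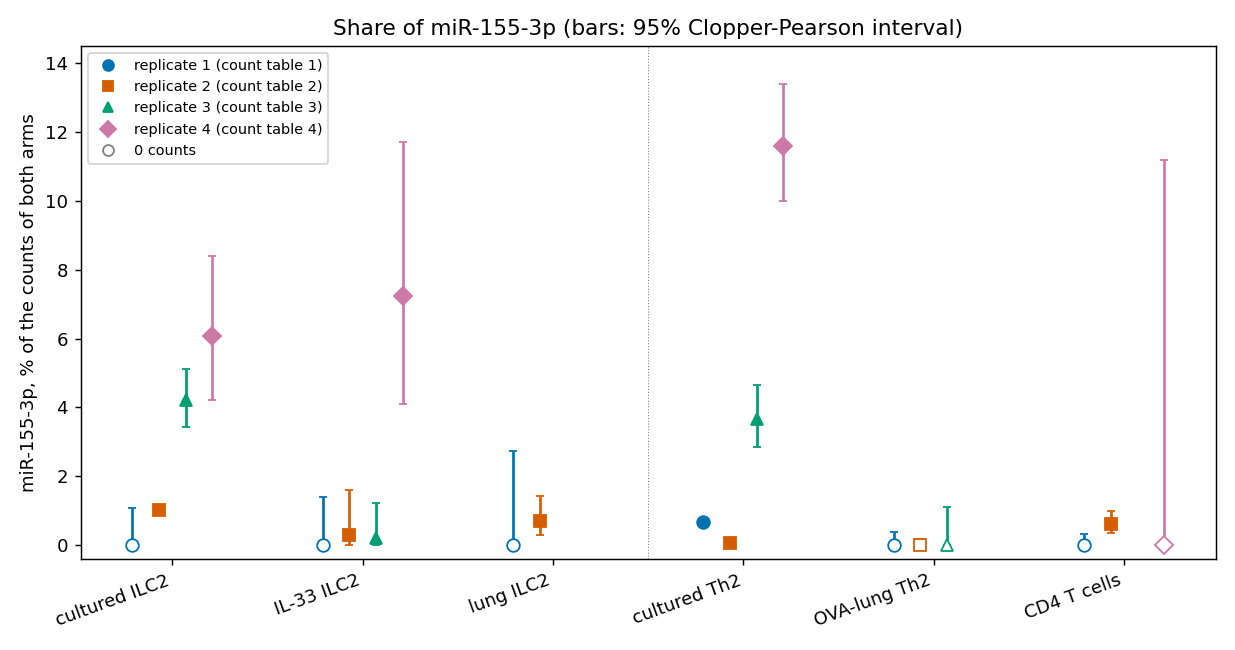
Share of miR-155-3p in the counts of both arms (percent) for the 20 libraries with at least 20 such counts; bars are 95% Clopper-Pearson intervals, colours and shapes are replicate numbers, open symbols are 0 counts. The highest shares, 6.07 to 11.6%, are the 3 libraries of replicate 4 with any miR-155-3p.

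The share differed by replicate number as well as by population. Its median was 0% in replicate 1, 0.453% in replicate 2, 1.94% in replicate 3 and 6.66% in replicate 4. For the minor arms of other hairpins the median share per library was 0 to 1.06% in replicate 1, 0.609 to 3.86% in replicate 2, 0% in replicate 3 and 0 to 0.0551% in replicate 4. Many of those hairpins had 0 counts of the minor arm, 58.3 to 70.5% in replicate 3 and 47.2 to 57.1% in replicate 4. A median at this floor cannot show whether other minor arms took the order of miR-155-3p. The part of the replicate number in the share of miR-155-3p was not tested.

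miR-155 is one of a set of microRNAs known from the literature to be induced by lymphocyte activation. The other 17 entries of that set, from miR-21a, miR-146a, miR-146b, miR-132, miR-212, miR-182, miR-183, miR-96, miR-221, miR-222, miR-31 and miR-210, together held 37.7 ± 22.2% of counts in cultured ILC2, 24.5 ± 16.4% in IL-33 ILC2 and 7.36 ± 3.23% in lung ILC2. They held 52 ± 23% in cultured Th2, 46.5 ± 11.1% in OVA-lung Th2 and 5.11 ± 3.21% in CD4 T cells (SD). Of 16 tested, 1 passed as higher in cultured ILC2 against lung ILC2 and 2 in cultured Th2 against CD4 T cells without the block, where 0.26% and 0.521% of all entries were higher. With the block the counts were 3 higher and 0 lower of 16 in cultured ILC2, beside 3.65% higher and 0.781% lower among all entries. In cultured Th2 they were 5 higher and 1 lower of 16, beside 8.59% higher and 4.43% lower among all entries.

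In vivo, without the block, 0 of the 16 passed either in IL-33 ILC2 against lung ILC2 or in OVA-lung Th2 against CD4 T cells, while 3 in each were higher at an unadjusted edgeR p under 0.05. With the block 2 were higher and 0 lower in IL-33 ILC2, beside 0.521% higher and 0% lower among all entries. In OVA-lung Th2 3 were higher and 0 lower, beside 2.86% in each direction. The median log2 difference of the set with the block was 1.13 in IL-33 ILC2 beside 0.66 for all entries, and 2.95 in cultured ILC2 beside 0.78. It was 2.05 in OVA-lung Th2 beside -0.58 for all entries, and 2.79 in cultured Th2 beside 0.36.

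The most abundant of them, miR-21a-5p, had log2 differences with the block of 3.78 ± 0.48 in cultured ILC2 against lung ILC2 (edgeR adjusted p = 5.6e-07) and 4.36 ± 0.50 in cultured Th2 against CD4 T cells (adjusted p = 1.4e-08). Its standard errors were smaller than the 1.41 and 1.32 of miR-155-5p in the same comparisons. miR-146a-5p, a feedback regulator of NF-kB signalling, was 3.42 ± 0.55 higher in cultured ILC2 (adjusted p = 4.4e-05) and fell by 1.58 ± 0.53 in cultured Th2 (adjusted p = 0.0433), both with the block. Without it neither passed, at 3.31 (adjusted p = 0.153) and -1.53 (adjusted p = 0.456). It is the 1 entry of the set called lower in cultured Th2 with the block, while the values of miR-155-5p were positive in both cultured populations. The remaining named entry, miR-146b-5p, did not pass in either without the block. It was -0.67 ± 1.09 in cultured ILC2 (edgeR adjusted p = 0.874) and 1.10 ± 1.10 in cultured Th2 (edgeR adjusted p = 0.319).

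Of 12 tested microRNAs abundant in lymphocytes at rest, 2 passed as lower in cultured Th2 against CD4 T cells without the block and 4 with it, where 0.521% and 4.43% of all entries were lower. In cultured ILC2 against lung ILC2 it was 0 without the block (1 at an unadjusted edgeR p under 0.05) and 2 with it, beside 0% and 0.781% of all entries. miR-150-5p, a repressor of Myb abundant in mature lymphocytes, fell by 6.47 ± 1.28 in cultured Th2 against CD4 T cells (edgeR adjusted p = 0.0018, no block). The other named entries of this list did not pass in that fit. They were miR-29a-3p at -0.79 ± 0.91 (edgeR adjusted p = 0.72) and miR-26a-5p at -2.64 ± 1.17 (edgeR adjusted p = 0.311).

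Likeness was the Pearson correlation of log2 CPM under TMM (prior count 2) over the 23 libraries, among 124 entries of mean log2 CPM 6 or more. The entries most like miR-155-5p were miR-301a-3p (r = 0.813), miR-24-2-5p (0.761), miR-501-3p (0.712), miR-17-5p (0.699) and miR-22-3p (0.655). The median over all compared entries was 0.166. These libraries share count tables and scaling. With the mean of each count table subtracted, the 5 highest were miR-21a-5p (0.852), miR-182-5p (0.797), miR-301a-3p (0.755), miR-21a-3p (0.747) and miR-24-2-5p (0.72), of which 2 are in the first 5.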

How the data were processed

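Per microRNA, the deposited files give expected counts, 9.98% of those above 0 not whole, although all counts of the 2 miR-155 arms were whole. The deposited RPM table scales each library to 1000000; its values for both arms differed from count over total by at most 0.0105%. The submitters' processing notes name mm10 and DESeq2; no aligner or trimming is given in the sources used here. An entry absent from a table was set to 0, and 6 columns of the authors' group averages were not used.

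Counts were rounded and fitted with edgeR 4.0.16 in R 4.3.3 (TMM, filterByExpr, 384 entries in 1 fit of 23 libraries, quasi-likelihood tests, Benjamini-Hochberg), without a block in the first fit. Both arms passed the filter. Alternatives were the block, other scalings, no filter, DESeq2 1.42.0, limma 3.58.1 on log2(RPM + 1) or log2(RPM + 10), and leaving out libraries. The block together with no filter was added after the data were seen. The fitting was tested on simulated data. The replicate number pairs libraries because the labels tie it to 1 count table. Deviations from group means correlated above 0.1 in 51 of 55 same-number pairs (lowest -0.0283, median 0.388), with a median of -0.153 between numbers. Deviations cancel out within a group, so the negative median between numbers follows from the positive one and is not a separate contrast. The biological coefficient of variation was 1.13 with the block and 1.54 without it. Shares used scipy 1.17.1; folds used ViennaRNA 2.7.2.

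Arms, lists and tests were chosen with earlier results of these data known. Named entries are both arms, the 5 most like miR-155-5p, the 3 most abundant of the activation and resting lists, the most abundant of each marker list, and entries with a shared seed.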

Additional observations from a re-analysis of the deposited data

Results flagged for a closer look

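Of 13 sets of 4 libraries checked, 4 held a library whose gap to the next was most of the range of its set. The cut-off is set for about 1 in 20 with normal values and separate sets. These are levels and shares of the same libraries, so that rate does not apply. Where the other 3 libraries are at 0, the gap is the whole range whatever the value. Cultured ILC2 2 had 20185 CPM of miR-155-5p, against 366.1 to 3099 CPM in the other 3 cultured ILC2 libraries. Lung ILC2 2 had 4.956 CPM of miR-155-3p, from 7 counts, where the other 3 had 0, but their depth allows up to 21.9, 35.0 and 10.3 CPM (3 counts of the total), so their 0 does not separate them from it. CD4 T cells 2 had 7.156 CPM of miR-155-3p, from 16 counts, where the other 3 had 0. All of these are replicate 2. In IL-33 ILC2 4, miR-155-3p made up 7.25% of the counts of both arms (exact 95% interval 4.11 to 11.7%), against 0 to 0.291% in the other 3.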

How the results depend on the processing

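Neither arm passed in any of 22 edgeR tests of log2 difference without the block, though 5 had an unadjusted p under 0.05 (2 passed with DESeq2, 1 with limma and pseudocount 1). With the replicate block 2 passed, and miR-155-5p had 5.02 in cultured ILC2 against lung ILC2 (4.90 without a filter) and miR-155-3p 7.23 in cultured Th2 against CD4 T cells (7.64 with the block and RLE; 6.36 with DESeq2 and no block). Others that passed under an alternative were miR-155-5p in OVA-lung Th2 against CD4 T cells (4.79 block with RLE, 4.12 DESeq2, 6.43 limma with pseudocount 1) and in cultured Th2 against CD4 T cells (4.43 block with RLE, 3.95 block without a filter). Shares of all entries called are given only for the filtered edgeR fits under TMM, with and without the block. Signs turned only in comparisons that passed under no setting for that arm; the cause was not tested. For miR-155-5p these were cultured Th2 against OVA-lung Th2 (0.0878 block, 0.208 no filter, 0.507 both), lung ILC2 against CD4 T cells (limma 0.73 with pseudocount 1, filtered or not, and 0.109 with 10), cultured ILC2 against cultured Th2 (-0.211 block with RLE, -0.135 block without a filter) and activation in culture between lineages (-0.048 block with RLE, -0.62 limma with pseudocount 1, filtered or not). For miR-155-3p they were OVA-lung Th2 against CD4 T cells (0.0477 DESeq2), lung ILC2 against CD4 T cells (0.0700 block with totals, 0.271 DESeq2), cultured ILC2 against cultured Th2 (-1.11 block, -0.432 RLE, -1.46 block with RLE, -0.339 block with totals, -1.36 block without a filter, -0.432 DESeq2) and activation in culture between lineages (-0.378 block, -0.259 RLE, -1.25 block with RLE, -0.409 block with totals, -1.05 block without a filter, -0.703 DESeq2). Leaving out 1 library, with or without the block, miR-155-5p ranged from 3.02 to 6.03 in cultured ILC2 against lung ILC2, 1.82 to 4.37 in OVA-lung Th2 and 2.13 to 4.45 in cultured Th2 against CD4 T cells, -0.983 to 0.981 in cultured Th2 against OVA-lung Th2, -1.59 to 0.84 in cultured ILC2 against cultured Th2 and -2.34 to 0.126 in the in vivo test between lineages. miR-155-3p ranged from 5.90 to 9.98 in cultured ILC2 against lung ILC2, 4.65 to 10.34 in cultured Th2 against CD4 T cells, 9.17 to 13.38 in cultured Th2 against OVA-lung Th2 (values set by the prior count, as OVA-lung Th2 is at 0), -4.77 to 3.35 in lung ILC2 against CD4 T cells, -2.61 to 1.07 in cultured ILC2 against cultured Th2 and -3.72 to 4.94 in the culture test between lineages. With the block, a difference passed that otherwise did not for miR-155-3p without cultured ILC2 1 (against lung ILC2) and cultured Th2 2 (against OVA-lung Th2), and for miR-155-5p without CD4 T cells 3 (cultured Th2 against CD4 T cells). The difference in share of miR-155-3p ranged from -0.177 to 2.24 points in IL-33 ILC2 against lung ILC2, -0.193 to 2.66 in cultured ILC2 against IL-33 ILC2 and -2.51 to 1.36 in cultured ILC2 against cultured Th2. Where only the compared groups entered the fit, miR-155-3p has no value in comparisons whose filter removed it. Scaling moved the median of all entries: without the block it was 0.60, -0.05 and -0.24 in cultured ILC2 against lung ILC2 under TMM, RLE and totals, and miR-155-5p was 3.54, 3.63 and 4.07 above it. Depth limits the resting libraries of replicates 3 and 4, with 0 to 31 counts of miR-155-5p, and miR-155-3p in most libraries.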
